A study of Bos taurus with 60 samples.

Results

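The miRNAs described here are those of the imprinted DLK1-DIO3 domain, whose largest group is the miR-379/miR-410 cluster. Members were chosen by miRNA number alone: every entry of the count table whose number is 1 of 41 numbers known from this domain in mammals, with any letter or arm suffix. The rule found 51 of the 608 miRNAs in the table, from 38 of the 41 numbers, and no entry for miR-668, miR-889 and miR-1193. The table holds 60 small RNA libraries of cattle (Bos taurus) intestinal tissue, made from snap-frozen biopsies taken after death. The super-shedder cattle shed Escherichia coli O157 in their feces at a high level, and the non-shedder cattle had none detected. No agent was given, and breed, age and sex are not stated in the labels. Each status has 5 animal letters (F to J super-shedders, A to E non-shedders), and each letter has 1 library of each of 6 regions. The small intestine is covered by the duodenum, the proximal jejunum and the distal jejunum, and the large intestine by the cecum, the spiral colon and the descending colon. That gives 12 groups of 5 libraries. The letter stands in the library title; that 1 letter is 1 animal is inferred from it.

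In mammals the DLK1-DIO3 domain carries protein genes (DLK1, RTL1, DIO3) that are expressed from the paternal chromosome and long non-coding RNAs that are expressed from the maternal chromosome. The miRNAs are cut from these maternal transcripts, so that many members come from shared precursors, and miR-127, miR-136, miR-431, miR-432 and miR-433 lie antisense to RTL1 and can cleave its mRNA in mouse. In mouse the cluster is known for high expression in placenta, embryo and brain and for its part in the metabolic adaptation of the newborn.

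All 51 members matched a bovine miRNA gene in RefSeq, and all 51 genes lie between DLK1 and DIO3 in that annotation, which was used for names and neighbours only. In order from the DLK1 side, 8 members came before miR-379 (miR-493, miR-665, miR-431, miR-433, miR-127, miR-432, miR-136 and miR-370), in the stretch around RTL1, and 43 lay from miR-379 to miR-656. No member sequence is printed, since the files used here hold none. Several families have near-identical members: miR-154 has 3 entries, miR-376 has 5, miR-411 has 4, and miR-409 and miR-487 have 2 each. How reads were divided within such families is not stated, and miR-409a and miR-409b share 1 annotated position, so the split within each family is uncertain.

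The total per library was 535373 to 19346766 miRNA counts (median 1735054.5). Members took 0.231 to 1.25% of them, and 0.507% of the counts of all libraries together. In 1 library, 27 to 50 of the 51 members had a count. Levels are CPM, counts divided by a library size that was scaled by the trimmed mean of M values (TMM) and set to a common total; they are levels per library, not per cell, and fewer cells that hold a miRNA cannot be told apart from less of it per cell in bulk tissue. Before the results, 13 libraries went against their labels by a marker rule set after the data were seen (miR-196b, a miRNA of the hindgut, at 50 CPM or more in the large and below it in the small intestine, epithelial miR-192 at 10000 CPM or more, and liver miR-122 below 1000 CPM). Of these, 10 were of super-shedders (all 6 of letter I, 3 of H and 1 of G) and 3 of non-shedders (2 of B and 1 of C), and each result that moved without them is given with both values.

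The level of the members spanned several orders of magnitude, and 2 of them held most of the counts. miR-127 took 71.4% and miR-411a 21.0% of all member counts. Summed over the 51 members the level was 2009, 4433 and 17867 CPM (lowest, median and highest of 60 libraries). The 8 members around RTL1 took 72.6% of member counts and the other 43 took 27.4%. After miR-127 (3632 ± 2221 CPM, mean ± SD, n = 60 libraries) and miR-411a (1047 ± 514 CPM) came miR-381 (53.8 ± 25.4 CPM), miR-410 (47 ± 20.9 CPM), miR-379 (45.4 ± 35.6 CPM), miR-380-3p (33.6 ± 16.6 CPM), miR-409a (29.1 ± 39.7 CPM) and miR-154c (25.8 ± 15.3 CPM). Neighbours from miR-381 to miR-154c in this order differed by less than their SD. At the low end, 12 members had a median count of 0, among them miR-431, miR-539 and miR-656, and miR-380-5p had 6 counts in all 60 libraries. A low-count filter (edgeR's default, minimum count 10) kept 21 members and 288 miRNAs in the model of all 60 libraries and set 30 members aside.

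**Figure D1:**
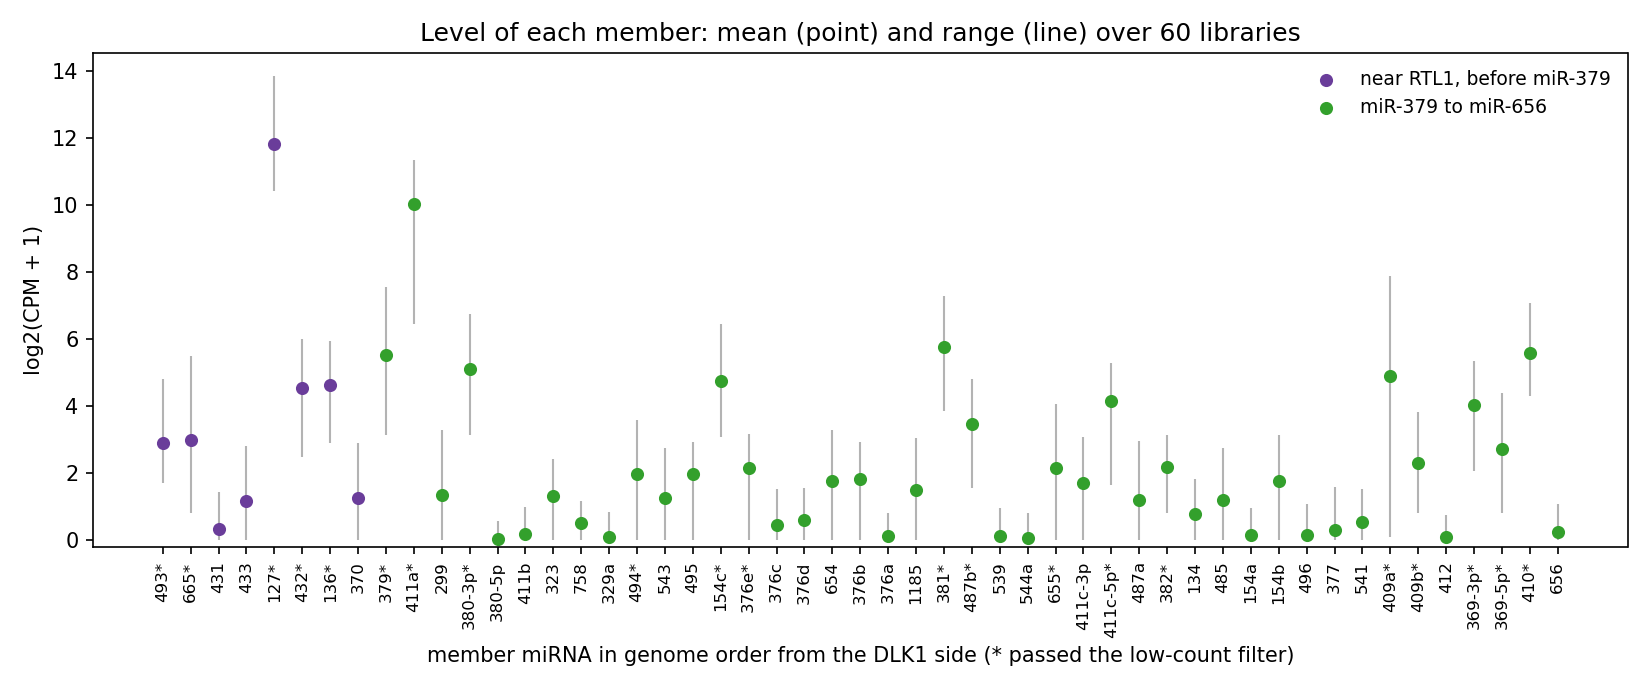
Mean (point) and range (line) over 60 libraries of the level of each of the 51 members, as log2(CPM + 1), in genome order from the DLK1 side, coloured by position. miR-127 and miR-411a stand far above the rest, and members with levels near 0 lie between well-expressed ones throughout the cluster.

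Members next to each other could differ widely in level. miR-411a, beside miR-379 in the annotation, averaged 1047 CPM against 45.4 CPM for miR-379, and miR-411b had 20 counts in all. The 3 hairpins with both arms in the table each had 1 dominant arm. miR-369-3p, which in human cells binds an AU-rich element of the TNF mRNA, held 72.8% of the counts of both miR-369 arms and was above miR-369-5p in 60 of 60 libraries. Its share was 72.1% in super-shedders and 73.4% in non-shedders, and 81.2% in the duodenum against 71.0 to 73.6% in the other 5 regions. miR-380-3p held 99.9% of both arms and miR-411c-5p 88.6%, each the higher arm in 60 of 60 libraries.

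The members differed along the gut: most tested members were higher in the large than in the small intestine. In the fit of all 60 libraries (edgeR quasi-likelihood, Benjamini-Hochberg adjustment over 288 miRNAs), 10 of the 21 tested members differed between any of the 6 regions, where 21.9% of all tested miRNAs did. In the large intestine (cecum, spiral and descending colon) against the small intestine (duodenum, proximal and distal jejunum), 12 members were higher and 0 lower, where 11.8% of all tested miRNAs were called higher and 15.3% lower. Of the 267 other tested miRNAs, 22 were called higher (8.24%). The median log2 fold change was 0.58 over the 21 members and -0.01 over all 288 miRNAs, and it was above 0 for 20 of the 21.

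Scaling to total counts moved the median of all miRNAs to -0.22 and that of the members to 0.37, with 8 members called higher, where 29.2% of all miRNAs were called in either direction. Without the 13 libraries 20 of 25 tested members were called higher and 0 lower, with 51.5% of all 309 miRNAs called, and 12 of the 20 were the 12 above. For any region the members called moved together with the calls over all miRNAs. They were 16 of 25 without the 13 libraries (53.1% of all miRNAs called) and 16 of 20 without letter I (42.3%). They were 4 of 22 without letter J (13.6%), 5 of 23 without A (15.2%), and 6 of 22 or 23 without D, E or F (15.0 to 17.7%). Depth moved with region: the median library total was 2733086 to 3537228 counts in the 3 large-intestine regions and 1280910 to 1597072.5 in the 3 small-intestine regions, and its part in the difference was not tested.

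The filter bears on that count, since a miRNA can pass through the groups in which it is high. In the 30 small-intestine libraries alone 15 of the 21 members pass the filter, and 11 of these 15 were called higher, beside 31 of all 268 miRNAs that pass there (11.6%). With no filter, 15 of all 51 members were called higher and 0 lower, beside 10.8% of 603 miRNAs called in either direction.

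miR-410, at the far end of the cluster, had the smallest p of the members. It was at 18.6, 57.6 and 135 CPM in the large intestine (lowest, median and highest of 30 libraries) and at 20.7, 33.3 and 77.2 CPM in the small intestine. The ranges overlap, and the large-intestine median lies above every small-intestine library but the duodenum of letter I. Its log2 fold change was 0.71 ± 0.13 (edgeR adjusted p = 6.00e-05). Within the letter its mean was higher in the large intestine in 9 of 10 letters, all but I. In letter I the hindgut marker miR-196b went against the labels, at 0.794 and 0.652 CPM in the cecum and spiral colon. It was at 316 and 894 CPM in the proximal and distal jejunum of that letter. In letter H it was at 791 CPM in the distal jejunum and at 0.549 and 0 CPM in the spiral and descending colon. miR-154c was at 9.77, 33 and 85.7 CPM in the large and 7.44, 16.1 and 39 CPM in the small intestine. Its log2 fold change was 0.90 ± 0.17 (adjusted p = 1.06e-04), with 9 of 10 letters higher, again all but I.

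miR-369-5p had the largest fold change of the 12, from low counts. It passed the filter in the large-intestine libraries and not in the small-intestine libraries taken alone, so it was tested only through the libraries in which it was high, and its place in this order is no finding. It was at 1.22, 7.4 and 19.98 CPM in the large and 0.765, 3.56 and 8.34 CPM in the small intestine. Its log2 fold change was 0.92 ± 0.21 (adjusted p = 0.00115), and the letter that went the other way was H. The other arm of the hairpin, miR-369-3p, was at 6.52, 18.1 and 39.8 CPM in the large and 3.19, 12.1 and 28.3 CPM in the small intestine, with a log2 fold change of 0.61 ± 0.15 (adjusted p = 0.00171). Both arms were called higher, and the difference between the 2 arms was not tested.

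miR-411c-5p was at 5.86, 20.8 and 38.3 CPM in the large and 2.13, 12.1 and 30.9 CPM in the small intestine, with a log2 fold change of 0.80 ± 0.17 (adjusted p = 4.08e-04). miR-487b was at 1.91, 10.9 and 27.2 CPM in the large and 3, 6.93 and 14.1 CPM in the small intestine, with a log2 fold change of 0.79 ± 0.17 (adjusted p = 4.23e-04). Letter I alone went the other way for each. miR-665, around RTL1, was at 1.4, 6.47 and 43.9 CPM in the large and 0.765, 4.67 and 16.4 CPM in the small intestine. Its log2 fold change was 0.75 ± 0.25 (adjusted p = 0.02); the call was lost without letter D, E or F (adjusted p = 0.0858, 0.0982 and 0.0919) and with libraries scaled to total counts (0.0575). Its 2 highest values were single libraries, 43.9 CPM in the descending colon of letter D and 32.2 CPM in the cecum of letter E.

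The other members called higher were miR-380-3p, miR-381, miR-411a, miR-493 and miR-136, with log2 fold changes of 0.54 ± 0.17 to 0.71 ± 0.15 and adjusted p of 2.80e-04 to 0.0144. Among the 9 that did not pass was miR-127, the most abundant member, at 1778, 3475 and 8993 CPM in the large and 1381, 2599 and 14744 CPM in the small intestine. Its log2 fold change was 0.33 ± 0.18 (adjusted p = 0.144), and letters H and I went the other way. With the letter as a replicate block, 17 members were called (31.2% of all miRNAs called), the 12 and also miR-127 (0.40 ± 0.12, edgeR adjusted p = 0.0119), miR-382, miR-409b, miR-432 and miR-494. Like miR-369-5p, miR-382, miR-409b and miR-494 pass the filter in the large-intestine libraries and not in the small-intestine libraries taken alone. They were tested only through the libraries in which they were high, so their calls are no finding. Without the block, miR-379, the first miRNA of its cluster, had 0.16 ± 0.23 (adjusted p = 0.636) and miR-409a -0.02 ± 0.39 (adjusted p = 0.986). The other 6 (miR-432, miR-382, miR-494, miR-409b, miR-655 and miR-376e) had estimates of 0.03 to 0.49, with adjusted p of 0.0519 to 0.901. So 3 of the 5 tested members around RTL1 and 9 of the 16 tested members of the miR-379 to miR-656 stretch were called. The 9 include miR-369-5p. The 16 include miR-369-5p, miR-382, miR-409b, miR-494, miR-376e and miR-655, which do not pass the filter in the small-intestine libraries alone. This tally is therefore no finding about either stretch.

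**Figure D2:**
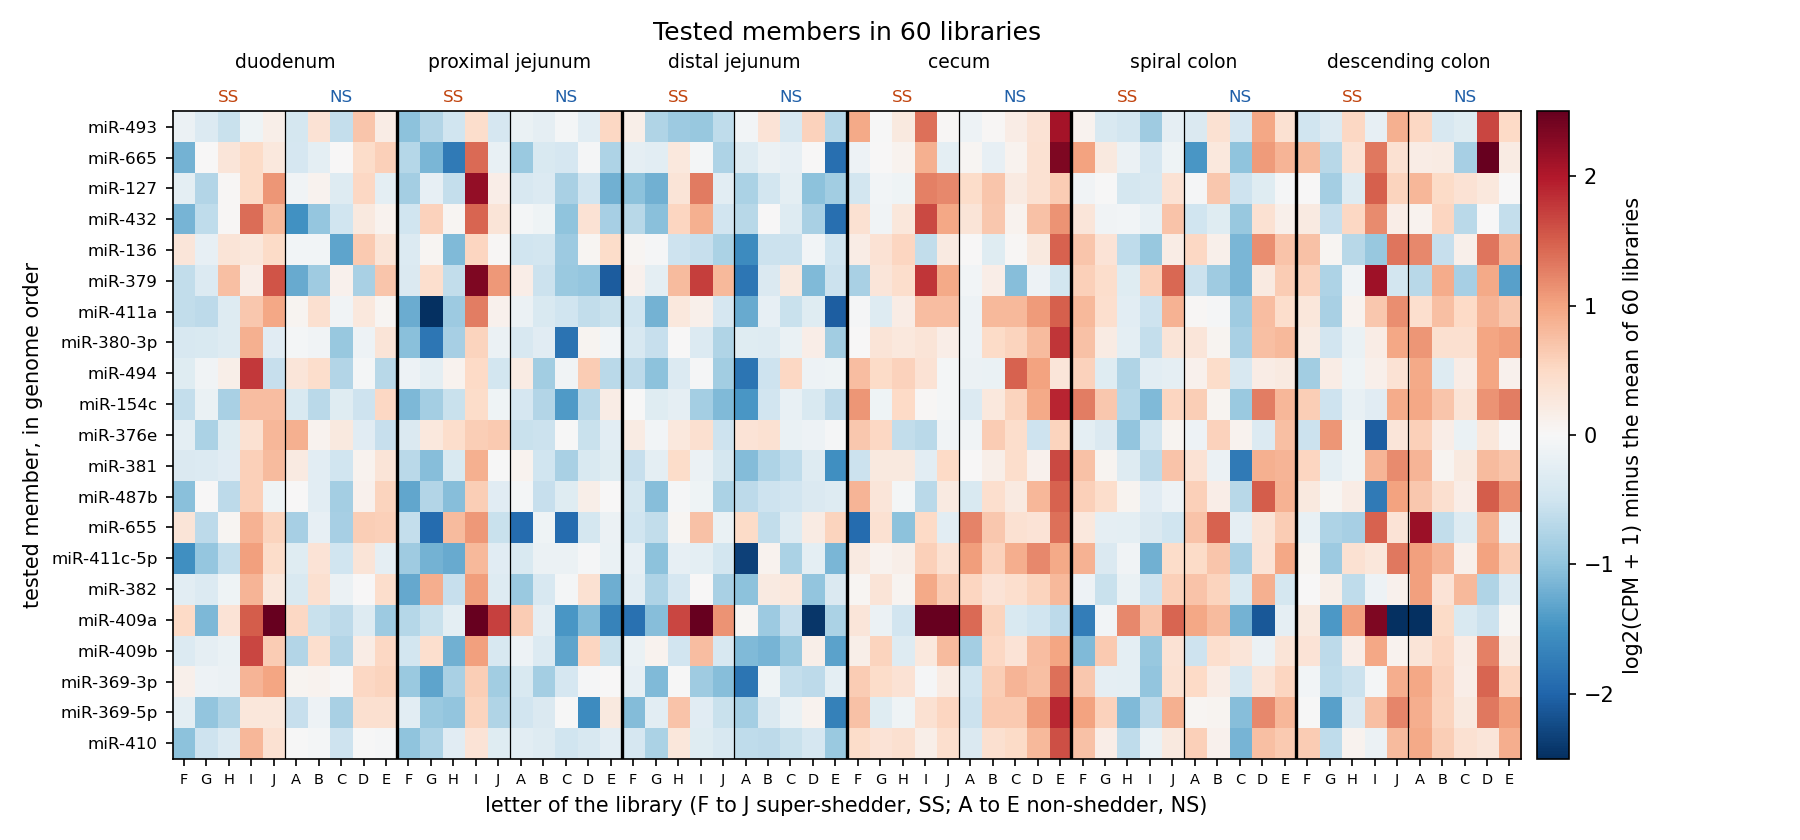
Level of the 21 tested members in all 60 libraries, as log2(CPM + 1) minus the mean of 60 libraries; columns run from duodenum to descending colon, with the 5 super-shedder libraries left of the 5 non-shedder libraries in each region. The 3 large-intestine blocks are redder for most members, and miR-127, miR-432, miR-379 and miR-409a are high in letter I in most regions.

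Between neighbouring regions, the members differed at 1 border, from the distal jejunum to the cecum. There 12 of 21 tested members were called higher and 0 lower, where 5.56% of all tested miRNAs were called higher, 3.12% lower and 8.68% in either direction. These 12 are 75.0% of the 16 miRNAs called higher, against 4 of the 267 other tested miRNAs (1.5%). The median log2 fold change was 1.01 over the 21 members and -0.01 over all 288 miRNAs, and it was above 0 for 21 of 21 members. In the 10 distal jejunum libraries alone 13 of the 21 members pass the filter, and 9 of these 13 were called, beside 12 of all 243 miRNAs that pass there (4.94%).

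In the cecum miR-410 was at 59.97, 55.3, 57.6, 47.6 and 58 CPM in super-shedders F to J and 33.5, 57.6, 60.7, 76.1 and 135 CPM in non-shedders A to E. In the distal jejunum it was at 31.9, 24.4, 52.6, 34.7 and 32.5 CPM in the super-shedders and 27.7, 27, 29, 31.9 and 22.2 CPM in the non-shedders. The cecum was above the distal jejunum in 10 of 10 letters, and the ranges overlap through letters H and I of the distal jejunum and letters A and I of the cecum. The log2 fold change was 1.03 ± 0.22 (adjusted p = 0.00314).

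miR-369-3p was at 21.9, 19.3, 18, 13.5 and 16.1 CPM in the cecum of super-shedders and 9.47, 21.6, 25.7, 24.1 and 37.2 CPM in that of non-shedders. In the distal jejunum the values were 11.8, 5.93, 13.8, 6.95 and 6.13 CPM in super-shedders and 3.19, 12.8, 8.76, 8.4 and 11.5 CPM in non-shedders. All 10 letters were higher in the cecum, and the log2 fold change was 1.18 ± 0.26 (adjusted p = 0.00314). For miR-411c-5p the cecum held 17.4, 15.7, 16.3, 22.6 and 19.5 CPM in super-shedders and 31.3, 22.3, 28.7, 35 and 29.1 CPM in non-shedders. Its distal jejunum held 12.6, 6.67, 12.7, 12.3 and 10.4 CPM in super-shedders and 2.13, 15.7, 8.09, 12.3 and 6.12 CPM in non-shedders. The groups overlap slightly, since letter B of the distal jejunum (15.733 CPM) lay just above letter G of the cecum (15.695 CPM). The log2 fold change of miR-411c-5p was 1.20 ± 0.30 (edgeR adjusted p = 0.00798).

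The other 9 called members were miR-154c, miR-411a, miR-493, miR-380-3p, miR-494, miR-432, miR-382, miR-487b and miR-381, with log2 fold changes of 0.85 to 1.22 and adjusted p of 0.0117 to 0.0287. Among these 9, miR-493, miR-494 and miR-382 pass the filter in the cecum libraries and not in the distal jejunum libraries taken alone. Their calls at this border are therefore no finding. miR-432, also in this set, passes in both and was not called between the large and the small intestine. miR-127 had 0.78 ± 0.30 (adjusted p = 0.0893), but with the letter as a replicate block it was called, as were miR-136 and miR-409b (0.80 ± 0.21, edgeR adjusted p = 0.0115, for miR-127; 15 members and 16% of all miRNAs called). Of these, miR-409b does not pass the filter in the distal jejunum libraries taken alone, so its call is no finding. Without the block, miR-379 had 0.13 ± 0.40 (edgeR adjusted p = 0.883). The count fell to 4 without letter A (5.07% of all miRNAs called), 4 without letter E (5.44%) and 6 without letter J (5.78%). It fell to 0 with libraries scaled to total counts, where 4 miRNAs in all were called. An unadjusted edgeR p under 0.05 was found there for 15 members, with no share over all miRNAs given. With TMM it was found for 17 members and 27.1% of all miRNAs. Total-count scaling moved the median of all miRNAs to -0.16 and the median of the members to 0.80, so that the members lay above the rest in both scalings. Without the 13 libraries 14 of 25 tested members were called higher, 11 of them among the 12, where 28.8% of all miRNAs were called.

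At the other 4 borders no tested member was called by edgeR. Proximal jejunum over duodenum had 0 of 21 (6.6% of all miRNAs called, 4.86% higher and 1.74% lower; 1 member with an unadjusted p under 0.05), with a members' median log2 fold change of -0.28. Without letter I, miR-369-3p was called lower there (-1.03 ± 0.26, edgeR adjusted p = 0.00474), and without the 13 libraries so were miR-369-3p (-0.95 ± 0.24, adjusted p = 0.00585) and miR-127 (-0.64 ± 0.22, adjusted p = 0.0415). Distal over proximal jejunum had 0 of 21 (0% of all miRNAs; 0 members with an unadjusted p under 0.05), spiral colon over cecum 0 of 21 (0.347%; 3 members) and descending over spiral colon 0 of 21 (0%; 0 members). Their medians over the members were -0.21, -0.35 and 0.29. Over all 288 tested miRNAs, 21.2%, 1.74%, 7.64% and 5.21% had an unadjusted edgeR p under 0.05 at these 4 borders. DESeq2 also called 0 at these 4 borders, with 3, 0, 5 and 2 members at an unadjusted p under 0.05. Its share over all miRNAs is not given. By region mean, the cecum was highest for 13 of the 21 members and the descending colon for 7, and the distal jejunum was lowest for 15.

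From duodenum to descending colon, the region means of miR-410 were 41.9, 33.9, 31.4, 64.1, 51.2 and 59.8 CPM (n = 10 libraries each). Those of miR-411a were 1021, 754, 657, 1429.6, 1098 and 1322 CPM, and those of miR-127 3545, 3540.1, 2771, 4575, 3116 and 4246 CPM. In each the distal jejunum was lowest and the cecum highest, and the duodenum lay above both jejunum means for miR-410 and miR-411a. miR-409a ran otherwise, with 27.8, 38.2, 29.3, 36, 22 and 21.3 CPM, highest in the proximal jejunum, where 1 library of letter I held 233 CPM. In the descending colon the libraries of letters J and A, the deepest of all 60, held 1 and 12 counts of it (0.0726 and 0.847 CPM), while the other 5 libraries of letter J were at 37.2 to 110.1 CPM. Without these 2 libraries, left out after their values were seen, the descending colon averaged 26.5 CPM and lay above the spiral colon.

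**Figure D3:**
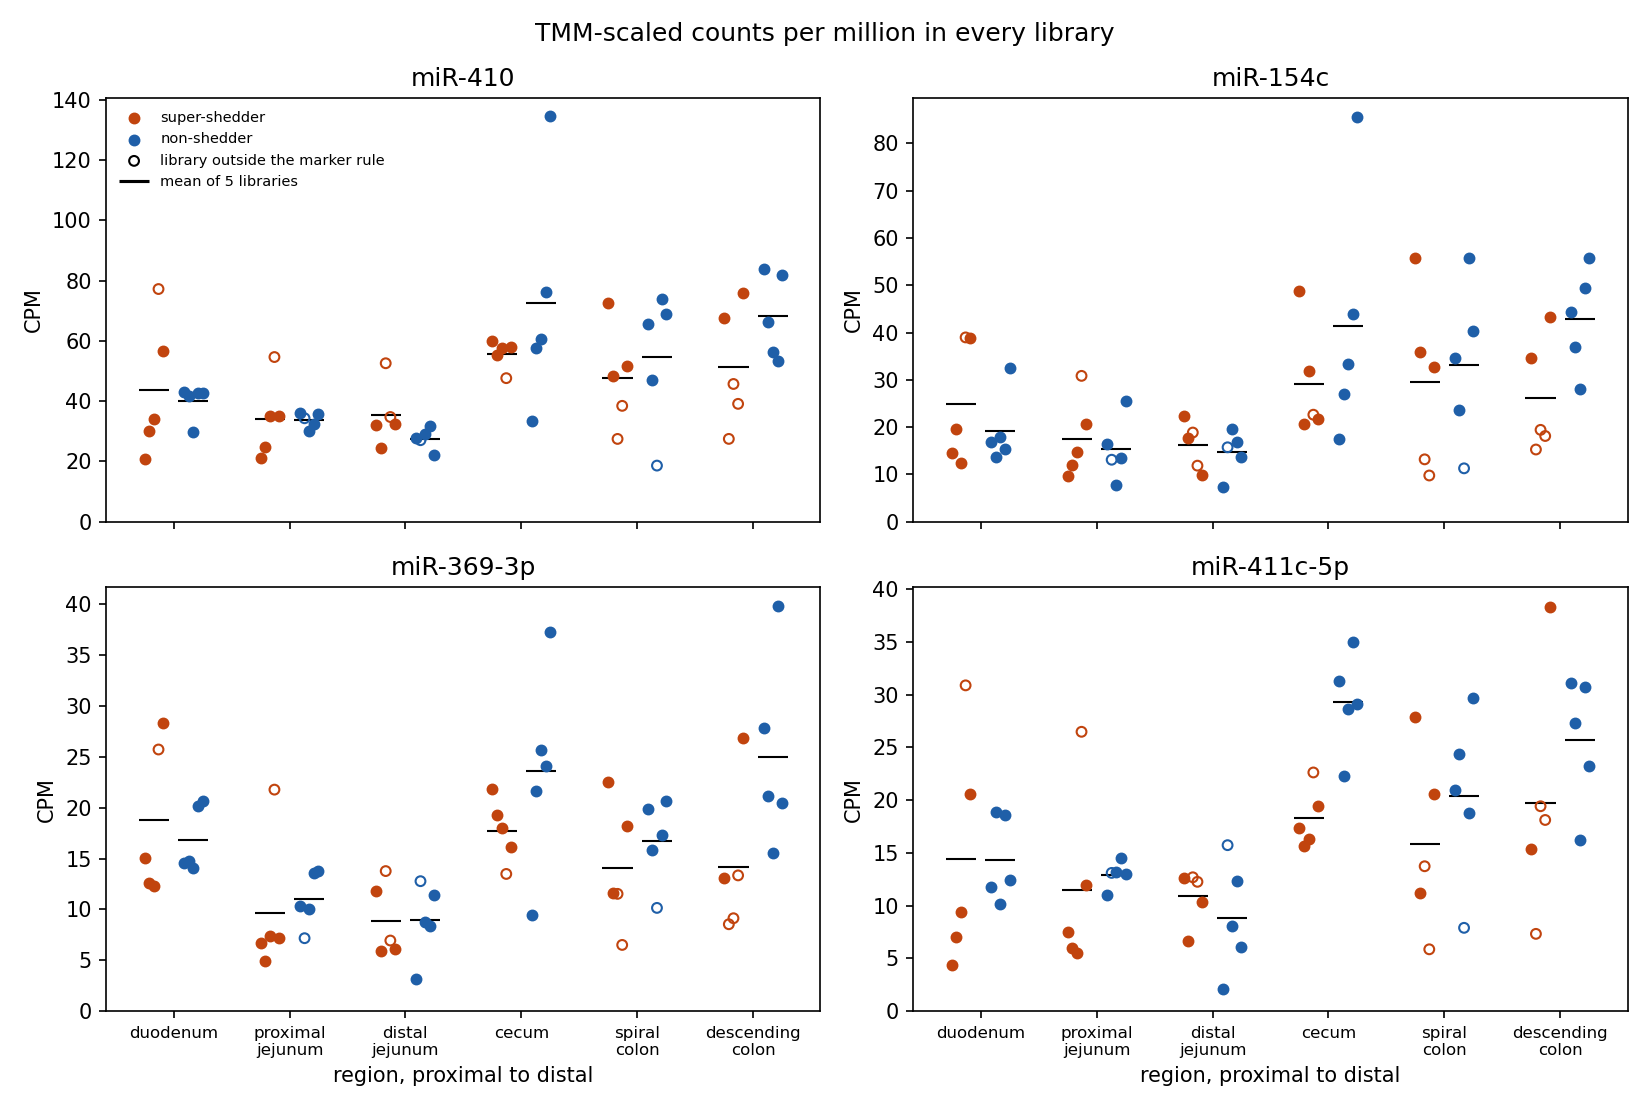
CPM of miR-410, miR-154c, miR-369-3p and miR-411c-5p in every library by region, super-shedders left of non-shedders, with the mean of 5 libraries as a line and the 13 libraries outside the marker rule as open points. The cecum lies above the distal jejunum in 10 of 10 letters for all 4.

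**Figure D4:**
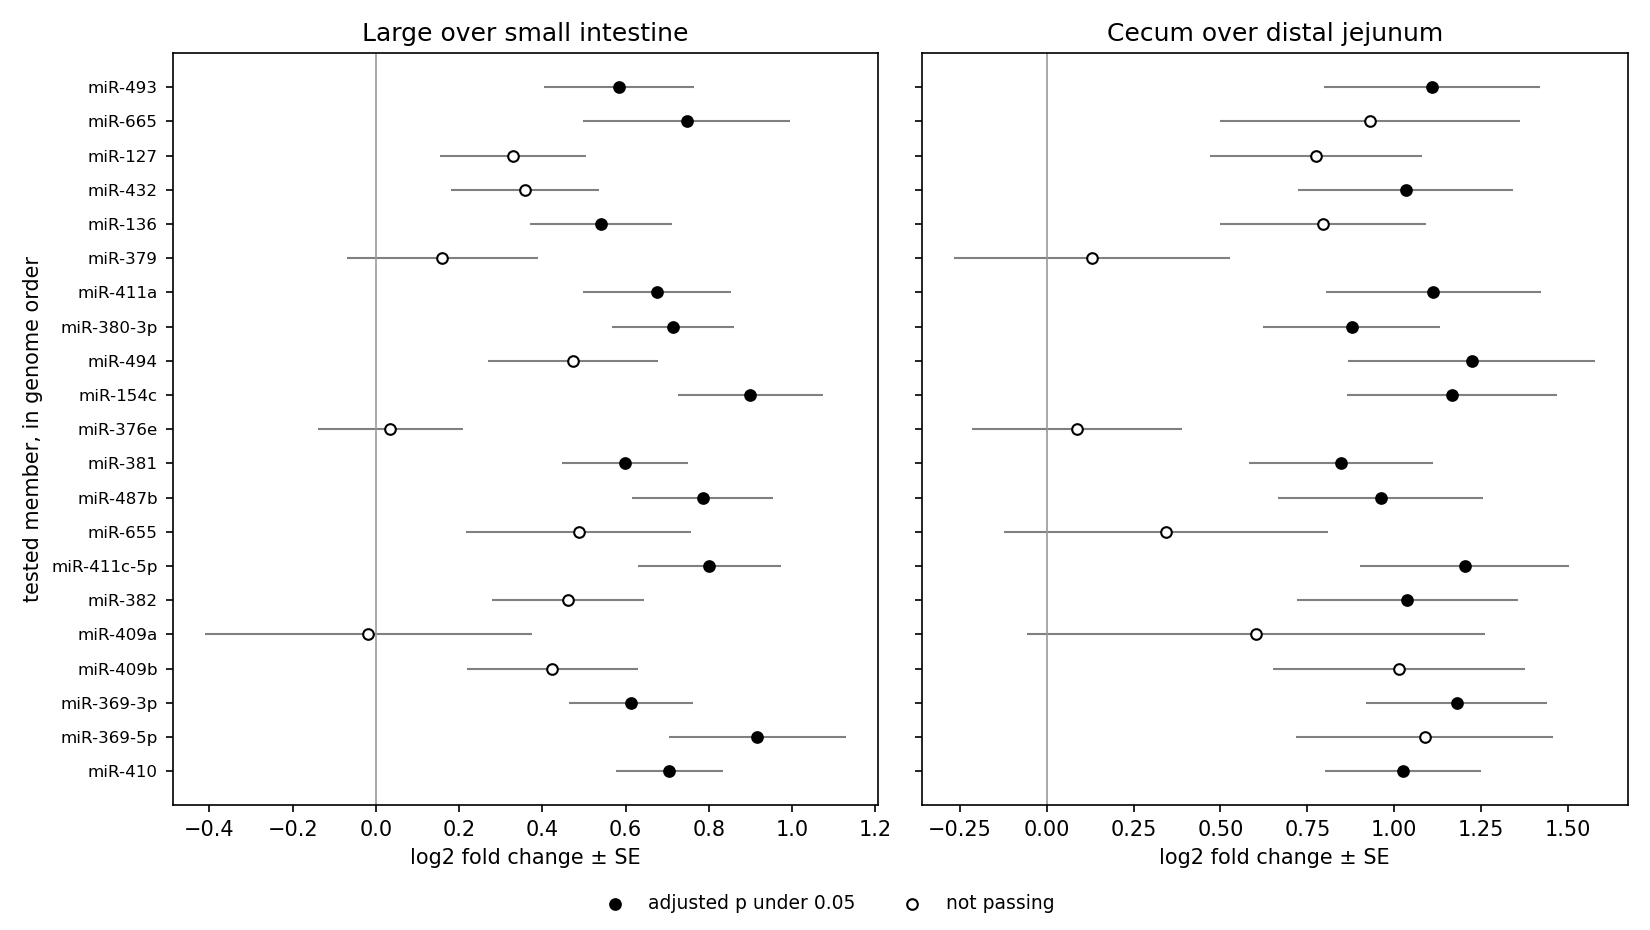
Log2 fold change ± SE of the 21 tested members for large over small intestine (left) and cecum over distal jejunum (right), filled where the adjusted p was under 0.05. 12 members pass on each side, and miR-379, miR-376e and miR-409a lie nearest to 0 on the left.

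Markers of other cell types moved with the region contrast in part. Of the tested markers of each list, 1 of 5 of smooth muscle (miR-133a), 1 of 4 of mesenchyme (miR-199a-3p) and 1 of 8 of epithelium (miR-429) were called higher in the large intestine. Called lower were 1 of 8 of epithelium (miR-215), 2 of 5 of leukocytes (miR-142-3p and miR-155) and 1 of 5 of neural cells (miR-138), and none of 2 of endothelium and 3 of red blood cells was called. Summed, the mesenchyme markers spanned 1697 to 5538 CPM (median 3504) in the large and 1736 to 4682 CPM (median 2526) in the small intestine. The leukocyte markers spanned 1091 to 11600.1 CPM (median 4108) in the large and 479 to 17581 CPM (median 7021) in the small intestine. The smooth muscle markers spanned 57256 to 1435740 CPM (median 566224) in the large and 68532 to 1510900 CPM (median 423520) in the small intestine; a TMM-scaled sum can pass the scaling total where a few miRNAs hold most counts. The position markers miR-196a and miR-196b were both called higher in the large intestine, and no liver marker was called. No marker of these lists was at 0 in all libraries of either intestine, and their part in the members' difference was not tested. From distal jejunum to cecum, where the members differed most, 1 epithelial marker was called lower and no marker of another list was called. There the leukocyte sum had a median of 4201 CPM in the cecum and 9219 CPM in the distal jejunum, and the mesenchyme sum 3411 CPM in the cecum and 2794 CPM in the distal jejunum.

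Shedding status gave no called member. In each of the 6 regions, in the counts of the 6 regions summed per letter, and in the test of whether the difference varies by region, 0 members passed at an adjusted p of 0.05 with edgeR. The tested members were 14 in duodenum, 12 in proximal jejunum, 13 in distal jejunum, 20 in cecum, 18 in spiral colon, 21 in descending colon and 35 in the sums. All tested miRNAs were called at 0.418%, 0%, 0.412%, 0%, 0.383%, 0% and 0.277% in these fits and at 0.347% in the test by region. Members with an unadjusted p under 0.05 were 1, 3, 3, 1, 1, 0 and 4, and 0 in the test by region. Over all tested miRNAs the same share was 3.77%, 10.1%, 9.88%, 6.15%, 7.28%, 2.97% and 9.42%, and 5.21% in the test by region. DESeq2 also called 0 members in each of them, with 0 to 3 members at an unadjusted p under 0.05 (share over all miRNAs not given). Without the 13 libraries edgeR again called 0 in each.

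In the sums the member with the smallest p was miR-379. Averaged over its 6 regions, each super-shedder letter F to J had 36.6, 37, 43.2, 115 and 74.4 CPM, against 24.2, 33.4, 25.5, 33.4 and 31.2 CPM in non-shedder letters A to E. Letters I and J are far above the rest, and super-shedder letter F (36.6 CPM) lies close to non-shedder letters B and D (33.4 CPM each). The fit used counts summed over the 6 regions of a letter, so that deeper libraries weigh more, while these means weigh the regions equally. In letter A, 19346766 counts came from the descending colon and 535373 to 3204756 from each other region. The sums thus mix the regions in unlike shares between letters. In this fit 0.277% of all miRNAs were called. The log2 fold change of miR-379 in super-shedders over non-shedders was 1.04 ± 0.32 (edgeR adjusted p = 0.239), and 0.63 without letter I. miR-409a had 13.7, 10.2, 29.2, 108 and 58.1 CPM in super-shedder letters and 24.5, 18.5, 9.68, 7.97 and 10.5 CPM in non-shedder letters. For miR-409a the letters of the 2 statuses overlap, and letters I and J are again highest. Its log2 fold change was 1.83 ± 0.61 (edgeR adjusted p = 0.239), and 0.91 without letter I. The descending colon of letters A and J, the deepest libraries, held 12 and 1 counts of miR-409a. The third by p was miR-543, which passed the filter only in the sums, at -0.60 ± 0.25 (adjusted p = 0.459).

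The direction over the members varied with region. In the sums the median log2 fold change was -0.26 over the 35 tested members, with 28 below 0, and 0.00 over all 361 miRNAs. By region it was 0.11, 0.25, 0.42, -0.48, -0.10 and -0.33 from duodenum to descending colon. With libraries scaled to total counts these became 0.30, -0.18, 0.05, 0.05, 0.00 and -0.46, where the median of all miRNAs moved to 0.22, -0.14, -0.27, 0.32, 0.23 and -0.01, so that the shift was common to members and other miRNAs. Relative to the median of all miRNAs the members lay at 0.08, 0.19, 0.33, -0.44, -0.13 and -0.38 with TMM and at 0.08, -0.03, 0.33, -0.27, -0.23 and -0.45 with total counts, so that the sign changed in the proximal jejunum alone. The test of a difference between regions in the shedding contrast had 0.992 as its smallest adjusted p among members.

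Within regions the smallest adjusted p of a member was that of miR-411c-5p in the cecum. It was at 17.4, 15.7, 16.3, 22.6 and 19.5 CPM in super-shedders F to J and 31.3, 22.3, 28.7, 35 and 29.1 CPM in non-shedders A to E. The groups overlap by 1 library, letter I, which was above letter B; the log2 fold change was -0.76 ± 0.22 (adjusted p = 0.242). In the same region miR-411a had -0.65 ± 0.30 (adjusted p = 0.61) and miR-380-3p -0.73 ± 0.34 (adjusted p = 0.61). Without letter E, a non-shedder, these were -0.41 for miR-411a and -0.30 for miR-380-3p.

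In the proximal jejunum the first 3 by p were miR-379, miR-409a and miR-127. miR-127 was at 1764, 2788, 2109.9, 14744 and 3568 CPM in super-shedders and 2434, 2517, 1811, 2284 and 1381 CPM in non-shedders. The library of letter I stands far above the other 9, which reach 3568 CPM; the log2 fold change was 1.25 ± 0.57 (adjusted p = 0.468) and 0.30 without it. miR-379 had 1.71 ± 0.63 (adjusted p = 0.352), with 1.02 without letter I, and miR-409a 2.46 ± 0.96 (adjusted p = 0.38), with 0.98. In the distal jejunum miR-379 had 1.49 ± 0.47 (adjusted p = 0.379), miR-409a 2.51 ± 0.89 (adjusted p = 0.396) and miR-381 0.74 ± 0.33 (adjusted p = 0.499). Without letter I, miR-379 had 1.03 and miR-409a 1.51 there.

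In the duodenum miR-409a had 1.58 ± 0.60 (adjusted p = 0.838), miR-379 0.73 ± 0.49 (adjusted p = 0.838) and miR-432 0.74 ± 0.51 (adjusted p = 0.838). Without letter J, miR-409a had 0.92 and miR-379 0.35, and without letter I miR-432 had 0.43. In the spiral colon miR-379 had 0.93 ± 0.40 (adjusted p = 0.567), miR-493 -0.62 ± 0.33 (adjusted p = 0.714) and miR-432 0.45 ± 0.29 (adjusted p = 0.714). There miR-493 had -0.40 without letter D, and miR-432 had 0.24 without letter J and 0.28 without letter C. In the descending colon miR-369-3p had -0.74 ± 0.39 (adjusted p = 0.979), miR-154c -0.65 ± 0.36 (adjusted p = 0.979) and miR-380-3p -0.55 ± 0.32 (adjusted p = 0.979). Without letter J these were -1.19, -0.99 and -0.90. None of these passed. A p that misses the threshold does not show that the statuses are alike.

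By group, from duodenum to descending colon, miR-127 averaged 3846, 4995, 3502, 4677, 3004 and 4250.5 CPM in super-shedders and 3245, 2085, 2039, 4473, 3228 and 4241 CPM in non-shedders (means of 5 libraries). miR-411a averaged 1029, 829.9, 763, 1155, 1175 and 1214 CPM in super-shedders and 1013, 677, 551, 1704, 1019.8 and 1429 CPM in non-shedders. miR-381 averaged 55, 45.8, 43.9, 51.6, 56.4 and 71.3 CPM in super-shedders and 48.9, 37.8, 27.2, 75.1, 59.9 and 72.3 CPM in non-shedders. No status difference in these means passed the test.

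For miR-410 the group means were 43.7, 34.1, 35.2, 55.7, 47.7 and 51.2 CPM in super-shedders and 39.98, 33.8, 27.6, 72.5, 54.8 and 68.4 CPM in non-shedders. For miR-380-3p they were 30.2, 22.2, 22.9, 35.4, 33.8 and 35.6 CPM in super-shedders and 27.6, 23.1, 25.1, 54.9, 38.3 and 54 CPM in non-shedders. For miR-154c they were 24.8, 17.6, 16.1, 29.1, 29.5 and 26.1 CPM in super-shedders and 19.3, 15.3, 14.7, 41.5, 33.1 and 42.9 CPM in non-shedders. In both statuses and all 3 members the means of the cecum, spiral colon and descending colon lie above every small-intestine mean. Over the large-intestine libraries, miR-410 averaged 51.5 CPM in super-shedders and 65.2 CPM in non-shedders, and over the small-intestine libraries 37.7 CPM in super-shedders and 33.8 CPM in non-shedders.

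miR-379 averaged 52.4, 72.4, 63.8, 62.1, 57.5 and 59.1 CPM in super-shedders and 30.3, 21.9, 24.3, 30.1, 31.5 and 39.1 CPM in non-shedders. miR-409a averaged 42.3, 64.9, 49.1, 51, 26.7 and 29.6 CPM in super-shedders and 13.3, 11.5, 9.52, 21, 17.2 and 13 CPM in non-shedders. The regions share animals, so these 6 comparisons are not independent. Letters I and J had the highest means over the regions for both members. For miR-409a, super-shedder letters F and G (13.7 and 10.2 CPM) lay below non-shedder letters A and B (24.5 and 18.5 CPM), and letters H, I and J above them.

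Over the members, the share of variance that went with the letter was near that of all miRNAs. The 4 members with the highest share are described here. After the region means were taken out, letter held 52.7% of the variance of log2 CPM for miR-127, 49.7% for miR-432, 48.5% for miR-379 and 46.7% for miR-409a, against a median of 31.1% over the 21 members and 30.9% over all 288 miRNAs. For miR-410 it held 21.1% and for miR-369-3p 26.8%, where region held 38.3 and 40.8%. The 4 were picked after these values were seen. Of all 288 miRNAs, 14.2% had a letter share at least as high as that of miR-409a, and so had 4 of the 21 members (19%).

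Letter I was the highest letter of all 4, at 1.06 (miR-127), 1.07 (miR-432), 1.46 (miR-379) and 2.36 (miR-409a) above the mean of all letters on the log2 scale, and letter J was the second highest for each. The library means of miR-127 were 2429, 2349.6, 2874, 7698 and 4878 CPM in letters F to J and 3416, 3821, 2844, 3162 and 2849.8 CPM in letters A to E. Those of miR-432 were 17.7, 16.7, 23.4, 45.3 and 27.9 CPM in letters F to J and 16, 20.6, 13.4, 23 and 19 CPM in letters A to E. Super-shedders thus hold both the highest letters and, for miR-127, the lowest, F and G. These levels are TMM-scaled, and a low TMM factor raises the CPM of a library. In letter I the factor was 0.372 to 0.784 in both jejunum regions and the descending colon. It was 1.17 to 1.43 in its duodenum, cecum and spiral colon. Members took 0.351% of total counts in its distal jejunum, below the median of 0.438% of all libraries. They took 0.472 to 1.15% in its other regions. The size of the excess of letter I under total-count scaling was not tested.

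All 6 libraries of letter I are outside the marker rule. Those of the cecum, spiral colon, proximal jejunum and distal jejunum are outside it by miR-196b. That of the duodenum is outside by miR-122 and that of the descending colon by miR-192. Smooth muscle markers of letter I took 8.41% of counts in the duodenum, below the 11.7 to 70.8% of the other 54 libraries. They took 26.9 to 59.6% in its other 5 regions, within that range. Its red blood cell markers took 1.49% in the descending colon, above the 0.278% that the other letters reached, and liver miR-122 took 1.18% in the duodenum, above their 0.00519%. Its epithelial markers took 0.151%, 0.248% and 0.280% of counts in the proximal jejunum, distal jejunum and descending colon, below the 1.62 to 34.5% of all other letters, and its leukocyte markers took 0.0351%, 0.0178% and 0.0856%, below their 0.0985 to 2.79%. In the duodenum, cecum and spiral colon of letter I the epithelial share was 9.23 to 20.8%, within that range. The part of these marker levels in the levels of the 4 members was not tested. Letter J, with no library outside the rule, was the second highest for the 4 members.

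**Figure D5:**
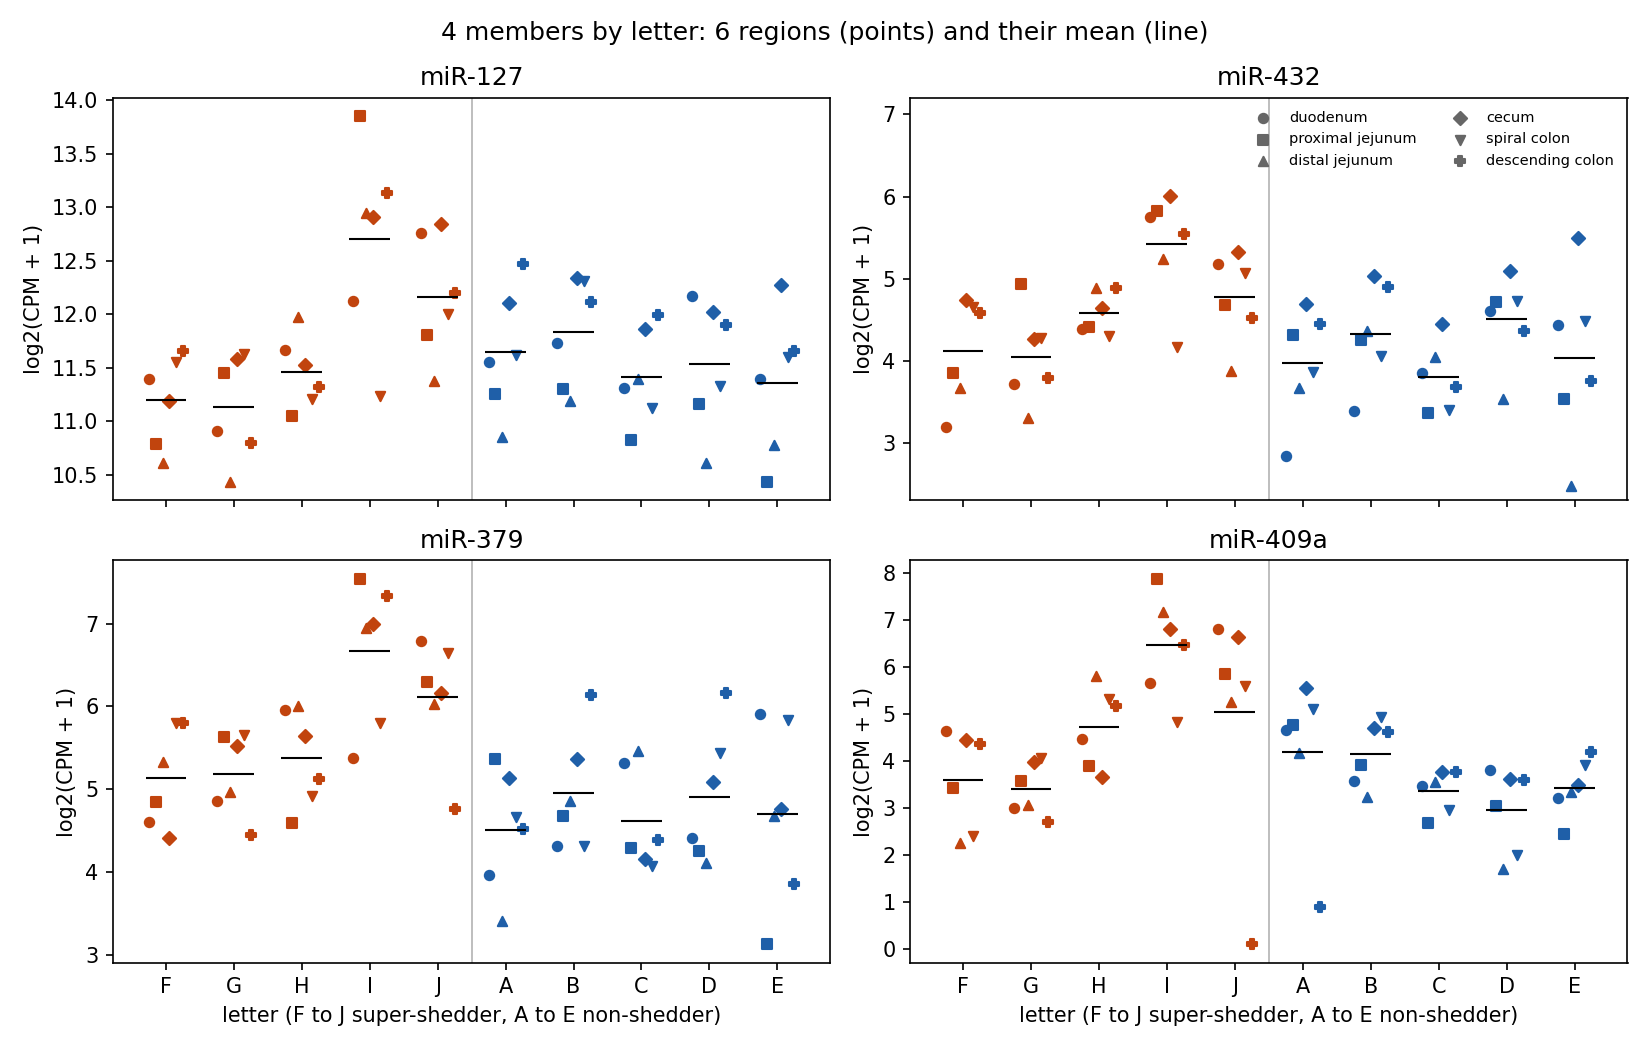
Level of miR-127, miR-432, miR-379 and miR-409a as log2(CPM + 1) by letter, super-shedders F to J left of non-shedders A to E; each point is 1 region and each line the mean of 6. Letter I has the highest mean and letter J the second highest in all 4 panels.

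Members varied together between libraries of the same group. After the 12 group means were taken out, the median Spearman correlation over the 210 pairs of tested members was 0.37 and 96.2% of pairs were above 0, over 60 libraries that share depth and scaling between miRNAs. Over all 41328 pairs of tested miRNAs the median was 0.00, and over the 5607 pairs of a member with another miRNA -0.02. Without letter I the members' median was 0.33 (54 libraries), and without the 13 libraries 0.27 (47 libraries). These are descriptions of the libraries and carry no test.

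The closest pairs were miR-380-3p with miR-381 (0.83), miR-381 with miR-410 (0.78) and miR-381 with miR-411a (0.78), none of which are direct neighbours in the annotation. miR-380-3p, miR-411a and miR-381 had the highest median correlation with the other members (0.57, 0.54 and 0.53). miR-409a had the lowest (0.04): it went with miR-127 (0.59), miR-379 (0.48) and miR-432 (0.45), was at 0.21 with miR-409b, its partner in annotated position, and at -0.37 with miR-136.

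Outside the locus, the 8 miRNAs most like the mean of the tested members were miR-151-5p (0.56), miR-3596 (0.55), miR-204 (0.54), let-7b (0.54), miR-152 (0.53), let-7c (0.52), miR-199a-5p (0.52) and miR-125b (0.51). Of these, miR-199a-5p is on the mesenchyme marker list, whose other markers were lower: miR-199b (0.31), miR-199a-3p (0.20) and miR-214 (0.13). At the other end were miR-142-3p (-0.74) and miR-142-5p (-0.70), miRNAs of blood cells, then miR-18a (-0.69) and the lymphocyte miRNA miR-150 (-0.68). All are Spearman correlations over the same 60 libraries after the group means were taken out.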

How the data were processed

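The authors deposited raw counts per mature miRNA for 60 small RNA libraries in 1 table; the values are whole numbers and no library was pooled. RNA was extracted with a mirVana kit and libraries were made with a TruSeq small RNA kit, per the labels. The labels' protocol text names rectal tissue throughout while the tissue labels name 6 regions; the tissue labels were used. Bowtie and edgeR are named in the submitters' processing notes; no version is named. The genome build, the annotation of miRNAs, and how reads with several matches were counted were not given in the sources used here, so the split between near-identical miRNAs could not be checked.

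From these counts, edgeR 4.0.16 (R 4.3.3) fitted quasi-likelihood models after TMM scaling and edgeR's filter on low counts (minimum count 10). Shedding was tested within each region (10 libraries) and on the counts of the 6 regions summed per letter (10 sums). Region contrasts and the test of shedding by region came from 1 model of 12 group means over 60 libraries. Tests were two-sided, p-values were adjusted (Benjamini-Hochberg) over all tested miRNAs, and the threshold was 0.05. The fits were tested on simulated counts with known changes. Alternatives were size-factor (RLE) and total-count scaling, no filter, a filter of CPM above 5 in at least 5 libraries, DESeq2 1.42.0, leaving out each letter, the letter as a block (edgeR, or limma 3.58.1 for the sums), 1 fit of all libraries for the shedding tests and, chosen after the data were seen, leaving out 13 libraries.

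The members, marker lists and tests were chosen with earlier results of these data known. Values are given for the 8 members of highest mean level, the members past the threshold or the 3 with the smallest p in each shedding comparison, the 5 largest fold changes in each direction between large and small intestine, the 3 smallest p between neighbouring regions and hairpins with both arms. Since only the library titles tie a letter to an animal, p-values from all 60 libraries treat the 6 libraries of a letter as separate. At 3 counts, the lowest level told from 0, libraries reached 0.212 to 3.19 CPM, by counting error only.

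Names and gene order came from RefSeq (assembly ARS-UCD2.0), in which 573 of the 608 names were matched. No coordinates are printed, since the build of the counts is not named.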

Additional observations from a re-analysis of the deposited data

Results flagged for a closer look

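For the 8 most abundant members and their sum, 8 of 108 sets of 5 libraries held a library whose gap to its nearest neighbour was more than 0.71 of the range (Dixon's critical value); chance gives about 1 in 20. Of these, 5 were libraries of letter I, all outside the marker rule: the super-shedder proximal jejunum for miR-127 (14700 CPM against 1760 to 3570 in the other 4), miR-409a (233 against 9.74 to 56.5) and the sum of the members (17900 against 2340 to 4940), the super-shedder descending colon for miR-379 (160 against 20.8 to 54.6) and the super-shedder duodenum for miR-380-3p (56.6 against 22.6 to 24.7). The other 3 were of non-shedders within the marker rule: letter E was high for miR-381 in the cecum (154 against 48.8 to 66.3) and for miR-154c in the duodenum (32.5 against 13.6 to 18.0), and letter C was low for miR-410 in the duodenum (29.8 against 41.6 to 43.2). All these levels are TMM-scaled. The TMM factor of the proximal jejunum of letter I was below the 1.01 to 1.53 of the other super-shedder letters there, which raises its CPM. Members took 0.894% of total counts in that library and 0.238 to 0.501% in the proximal jejunum of the other super-shedder letters. Whether the flags hold with total-count scaling was not tested.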

How the results depend on the processing

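Of the 15 counts of members called, 12 were 0, and 202 of their 204 alternative values were 0 too, which says little about stability. Of the 51 alternative values of the other 3, 37 stayed within 1.5 times the reported count and 14 moved. Direction was followed for the named members only, and no alternative value of theirs reversed. For any region (10 called), scaling to total counts gave 3, DESeq2 16, leaving out 1 letter 4 to 16 and leaving out the 13 libraries 16. The share of all miRNAs called is not given for the total-count and DESeq2 fits. Their counts are therefore not read as results about the members. For large over small intestine (12), leaving out 1 letter gave 11 to 16 and leaving out the 13 libraries 20. For cecum over distal jejunum (12), scaling to total counts gave 0 and leaving out 1 letter 4 to 13. For proximal jejunum over duodenum (0), leaving out 1 letter gave 0 to 1 and leaving out the 13 libraries 2. The cause of these moves was not tested. Among named members, 8 of 491 alternative values lost the call, all of miR-665 between large and small intestine or of miR-410, miR-369-3p and miR-411c-5p between cecum and distal jejunum; the calls of these 3 ended with total-count scaling (adjusted p of 0.0552, 0.0522 and 0.0522), and that of miR-411c-5p also without letter A (0.0507). Whether letters pair the libraries is inferred from titles: after the group means were taken out, same-letter libraries correlated at a mean of 0.154 (92 of 150 pairs over 0.1) and other pairs at -0.0271. With the letter as a replicate block the members called were 14 for any region (31.6% of all miRNAs called, against 21.9% without the block), 17 for large over small intestine (31.2% against 27.1%) and 15 for cecum over distal jejunum (16% against 8.68%), and 0 in the other region comparisons, in the test by region and, as a random block, for shedding over all regions. Depth limits the 30 untested members, 12 of which had a median count of 0.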

Other observations

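miRNAs of the same locus that the number rule leaves out, and those of other imprinted loci, were read from the same fits. miR-1247-5p, near DIO3, was not called between large and small intestine (log2 fold change 0.63 ± 0.33, edgeR adjusted p = 0.144). miR-1197, inside the miR-379 cluster, had 125 counts and miR-1247-3p 20 counts in all libraries. Of the other imprinted loci, miR-335, in an intron of MEST, was higher in the large intestine (0.70 ± 0.15, edgeR adjusted p = 4.23e-04) and miR-296-3p, of the GNAS locus, was lower (-0.52 ± 0.14, adjusted p = 0.00315). miR-296-5p was not called (-0.33 ± 0.18, adjusted p = 0.165). By status none of the 6 that were tested in the sums was called.

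Over 60 libraries after the group means were taken out, the miRNAs outside the locus most like the mean of miR-127, miR-432, miR-379 and miR-409a were miR-125b (Spearman 0.81), miR-100 (0.78), miR-99b (0.74), miR-1343-3p (0.73) and miR-99a-5p (0.73). These 4 members and this measure were chosen after their values were seen, and the correlation carries no test.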
